A study of Homo sapiens with 10 samples.

Results

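Of 10 RNA-seq libraries in the study, 4 came from HaCaT keratinocytes that were never irradiated, and these 4 are described here across all expressed genes. They were chosen by their labels alone: 2 libraries of cells given LBP, a polysaccharide-glycoprotein of Lycium barbarum (the goji plant), and 2 of cells given vehicle. HaCaT is a spontaneously immortalised human skin keratinocyte line; the labels call its tissue mucosa and its genotype wild type. All cells grew in RPMI 1640 with 5% fetal bovine serum. LBP or vehicle was added 24 h before the time of irradiation, and RNA was taken with Trizol 3 h after that time, so by their labels the non-irradiated groups (0 Gy) differ only in LBP. The remaining 6 libraries, 3 given vehicle and 3 given LBP before 12 Gy, enter the model of spread and are set beside these cells at the end. The dose of LBP, the vehicle and the purity of the preparation are not given in the labels. The titles number the libraries of each group as repeated experiment groups, but do not say whether these were separate cultures. A p-value here therefore reflects library-to-library spread that could be wholly technical.

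As background, NRF2 is a transcription factor that KEAP1 holds at a low level by targeting it for degradation; oxidants and electrophiles that modify KEAP1 release it, and it then drives genes for glutathione synthesis, quinone reduction, haem breakdown and iron storage through antioxidant response elements. The aryl hydrocarbon receptor (AhR) is a ligand-activated transcription factor that drives CYP1A1 and CYP1B1 through xenobiotic response elements and is well known in keratinocytes for dioxin and tryptophan-derived ligands. ATF4 is the transcription factor of the integrated stress response and drives amino acid synthesis and uptake genes.

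Depth was 38107258 and 62986831 counts in the vehicle libraries and 40673084 and 44495984 in the LBP libraries, and ran from 31830506 to 62986831 over all 10. Levels are given per library as CPM, a gene's count scaled to the library's total after TMM adjustment (edgeR's correction for library composition), with vehicle replicate 1 before 2 and LBP replicate 1 before 2. The limit that a count of 0 allows, 3 counts, is 0.0790 and 0.0478 CPM in the vehicle libraries and 0.0746 and 0.0702 in the LBP libraries on the same scale, and covers counting error only. As a check of the labelled cell type, 18 basal keratinocyte genes summed to 14721 and 14597 CPM with vehicle and 16470 and 15904 with LBP, while fibroblast, endothelial, melanocyte and leukocyte lists summed to between 1.87 and 18.9 CPM in every library, with DCN, THY1, EMCN, PECAM1, TEK, SOX10, TYR and CD3E among those at 0. Simple and mucosal epithelial markers were also abundant, at 7536 to 8719 CPM, led by KRT8. Mitochondrially encoded genes took 2.97 and 2.54% of counts with vehicle and 2.41 and 2.08% with LBP. Over all features, the first principal component (19.4% of variance) placed both LBP libraries at positive and both vehicle libraries at negative scores.

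After 24 h of LBP and the following 3 h, 80 features were higher and 39 lower than with vehicle, of 14799 tested. The rise was led by detoxifying and antioxidant enzymes: haem oxygenase 1 (HMOX1) was 27.0 times higher, the xenobiotic-metabolising cytochromes CYP1A1 and CYP1B1 were 7.33 and 4.80 times higher, and the aldo-keto reductases AKR1C2, AKR1C1 and AKR1C3 were 5.64, 5.53 and 4.54 times higher. The EGF receptor ligand gene EPGN and the keratin KRT16 rose as well. Most falls were smaller, and they included the chemokine CXCL6, the intermediate filament gene VIM and the matrix gene FN1. In bulk RNA, fewer cells of a kind and less RNA per cell cannot be told apart for any of these genes.

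A feature is called here when its adjusted p is under 0.05 by edgeR's quasi-likelihood test with Benjamini-Hochberg adjustment over all 14799 features; every adjusted p below comes from that test. The calls make up 0.804% of tested features, 0.541% higher and 0.264% lower. Among them, 34 rose and 8 fell at least 2-fold. The median log2 fold change was 0.84 among those called higher, -0.65 among those called lower and 0.00999 over everything tested. At an unadjusted p under 0.05 there were 2003 of the 14799 features, the background for list counts given at that threshold below. DESeq2 called 374 features (191 higher, 183 lower), a more even split of directions. With 1 library left out the count fell to 38 without vehicle replicate 1, 42 without vehicle replicate 2, 52 without LBP replicate 1 and 46 without LBP replicate 2.

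**Figure D1:**
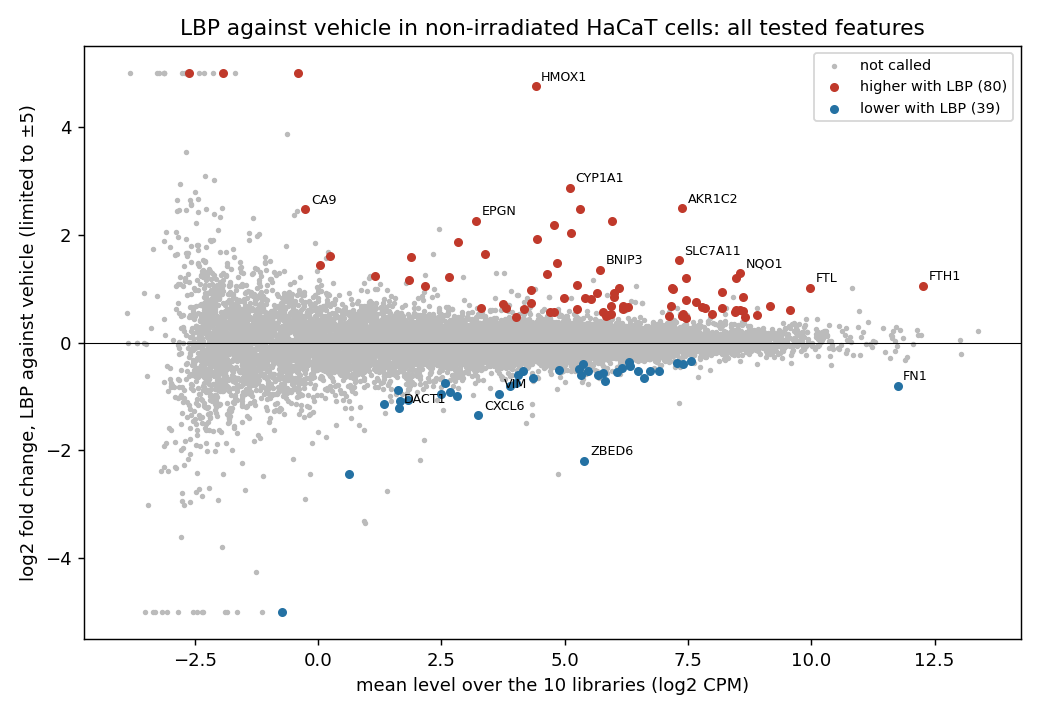
Log2 fold change of LBP against vehicle in non-irradiated cells (vertical axis, limited to ±5) against mean level over the 10 libraries (horizontal axis, log2 CPM), with 1 point per tested feature. The 80 features called higher are red, the 39 called lower are blue and the rest are grey; HMOX1 is at 4.75.

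Short and long genes were not called alike. Of features with a known exon length (89.3% of those tested), the shortest class, with exons of up to 3213 bases, had a median log2 fold change of 0.07 and held 26 higher and 3 lower calls. The longest class, with exons of 7496.5 bases or more, had a median of -0.03 and held 9 higher and 21 lower calls. Removing a length trend from each library, an alternative chosen after seeing the data, left 78 higher and 42 lower calls, of which 106 were shared with the 119.

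HMOX1 (ENSG00000100292.16, chr22:35380361-35394214 on GRCh38), which opens the haem ring and releases iron, was at 3.55 and 4.84 CPM with vehicle and 103 and 127 CPM with LBP. The groups lay far apart, with a log2 fold change of 4.75 ± 0.25 (SE, n = 2 against 2, adjusted p = 2.89e-06). FTH1, the heavy chain of the iron store ferritin, was at 3644 and 3598 CPM with vehicle and 7399 and 7648 CPM with LBP (1.06 ± 0.11, adjusted p = 0.000371). FTL, the light chain, was at 733 and 736 CPM and 1444 and 1524 CPM (1.01 ± 0.09, adjusted p = 0.000173). Both chains were near 2-fold higher in both LBP libraries, and together they took 0.434% of all counts with vehicle and 0.877% with LBP. SLC48A1, a haem transporter, rose by a log2 0.56. FECH, which inserts iron into protoporphyrin to make haem and is outside the naming rule, rose by 0.49. In the list of haem and iron genes 5 of 17 tested were called higher and none lower by edgeR, with 1 lower at an unadjusted p under 0.05 and none lower by DESeq2; the median log2 fold change was 0.19. The transferrin receptor gene TFRC was not called (1128 and 964 CPM with vehicle, 1254 and 1131 CPM with LBP, adjusted p = 0.491).

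HMOX1, FTH1 and FTL kept their calls when any 1 of the 4 libraries was left out. SLC48A1 and FECH lost theirs whichever library was left out, with adjusted p up to 0.114 and 0.175.

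Of 29 tested NRF2 antioxidant genes, 21 were called higher and none lower, against 0.541% of all features higher, and all 29 had a log2 fold change above 0. The list's median was 0.84 and its lowest member was the glutathione reductase gene GSR, at 0.27 ± 0.07 (adjusted p = 0.132). The list was put together with earlier results of these data known, so its count is a description. Without 1 library the count of members called was 14 (vehicle replicate 1), 13 (vehicle replicate 2), 17 (LBP replicate 1) or 16 (LBP replicate 2).

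**Figure D2:**
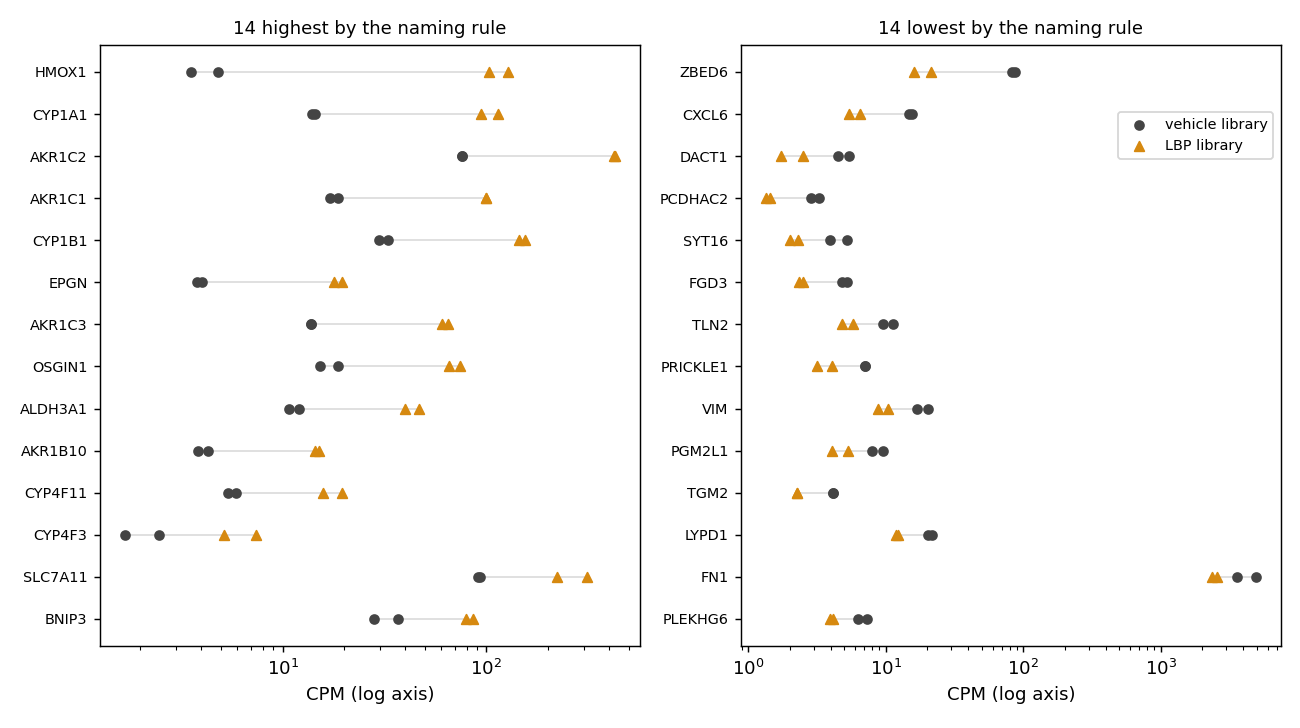
Level of 14 of the highest and 14 of the lowest changes, by the rule that fixed which genes are named, in each library (CPM, log axis; circles vehicle, triangles LBP, 2 libraries each). The rule admits only genes whose groups do not overlap; HMOX1 goes from 3.55 and 4.84 CPM to 103 and 127, and CXCL6 from 14.8 and 15.5 to 6.54 and 5.36.

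Among enzymes that reduce carbonyls, quinones and aldehydes, the 3 neighbouring aldo-keto reductases of chromosome 10 moved together. AKR1C2 was at 75.8 and 75.7 CPM with vehicle and 425 and 428 CPM with LBP (2.49 ± 0.17, adjusted p = 1.25e-05). AKR1C1 was at 17.2 and 18.8 CPM and 99.3 and 100.1 CPM (2.47 ± 0.18), and AKR1C3 at 13.8 and 13.8 CPM and 60.3 and 65.2 CPM (2.18 ± 0.16). In all 3 the 2 libraries of a group were nearly equal and the groups lay far apart. These paralogs are close copies, so the split of reads between them is uncertain. AKR1B10, an aldo-keto reductase of another subfamily, went from 4.29 and 3.87 CPM to 14.4 and 15.1 CPM (1.86 ± 0.20). NQO1, the quinone reductase that is a standard NRF2 readout, was at 249 and 258 CPM with vehicle and 595 and 643 CPM with LBP (1.29 ± 0.10, adjusted p = 4.81e-05). ALDH3A1, an aldehyde dehydrogenase that also answers to AhR, was at 12.1 and 10.8 CPM and 46.7 and 39.7 CPM (1.92 ± 0.16, adjusted p = 8.44e-05).

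The fatty acid omega-hydroxylase genes CYP4F11 and CYP4F3 of the CYP4F cluster were also called higher. CYP4F11 was at 5.92 and 5.41 CPM with vehicle and 19.5 and 15.9 CPM with LBP (1.65 ± 0.14, adjusted p = 0.000107). CYP4F3 was at 1.68 and 2.47 CPM and 7.43 and 5.15 CPM (1.58 ± 0.31, adjusted p = 0.0371), a call that ended whichever library was left out (adjusted p up to 0.399). ALDH3A2, named after its values were seen, rose by 0.48. Of 21 reductase, dehydrogenase and CYP4F genes tested, 8 were called higher and none lower, with a median of 0.43; DESeq2 called 10 higher and none lower, and none was lower at an unadjusted p under 0.05. OSGIN1, an oxidative-stress-induced growth inhibitor gene, was at 15.3 and 18.7 CPM with vehicle and 65.5 and 74.0 CPM with LBP (2.03 ± 0.16, adjusted p = 4.81e-05). All the AKR genes named, NQO1, ALDH3A1, CYP4F11 and OSGIN1 kept their calls without any 1 library, whereas ALDH3A2 lost its call without each (adjusted p up to 0.287).

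Genes of cystine uptake and of the first step of glutathione synthesis rose. SLC7A11, the cystine importer, was at 93.4 and 91.3 CPM with vehicle and 312 and 222 CPM with LBP (1.53 ± 0.17, adjusted p = 0.000549). GCLC, the catalytic subunit of the rate-limiting glutamate-cysteine ligase, was at 114 and 114 CPM and 277 and 246 CPM (1.20 ± 0.14, adjusted p = 0.000807). GCLM, its modifier subunit, was at 102 and 100.1 CPM and 221 and 181 CPM (1.00 ± 0.11, adjusted p = 0.000526). In each the 2 vehicle libraries were within a few percent of each other and LBP replicate 1 was the higher of the LBP pair. SLC3A2, the partner chain of SLC7A11, rose by 0.60 (adjusted p = 0.00762). CTH, which makes cysteine, and the glutathione peroxidase gene GPX2, both named after their values were seen, rose by 0.73 and 0.66. In the glutathione and cystine list 6 of 24 were called higher and none lower (none lower by DESeq2 or at an unadjusted p under 0.05), with a median of 0.27. SLC7A11, GCLC and GCLM kept their calls without any 1 library. SLC3A2 and CTH lost theirs without each (adjusted p up to 0.116 and 0.211), and GPX2 without vehicle replicate 1, vehicle replicate 2 or LBP replicate 2 (up to 0.113).

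In the thioredoxin branch, TXNRD1, the reductase of cytosolic thioredoxin, was at 230.2 and 249 CPM with vehicle and 585 and 514 CPM with LBP (1.20 ± 0.18, adjusted p = 0.00809). SRXN1, which repairs over-oxidised peroxiredoxins, was at 199.6 and 217 CPM and 398 and 401 CPM (0.94 ± 0.12, adjusted p = 0.00248). TXN, thioredoxin itself, rose by 0.52 (adjusted p = 0.0313), while the peroxiredoxin gene PRDX1 was not called (0.36 ± 0.09, adjusted p = 0.109). Of 21 thioredoxin and peroxiredoxin genes, 4 were called higher (these 3 and TXNIP, described below), or 3 with the length trend removed. None was called lower by edgeR or DESeq2 or was lower at an unadjusted p under 0.05, and the median was 0.10. These calls were less firm: TXNRD1 lost its call without vehicle replicate 1, vehicle replicate 2 or LBP replicate 1 (adjusted p up to 0.143), SRXN1 without vehicle replicate 1 (0.0744) and TXN whichever library was left out (up to 0.312).

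The NADPH that these reductases use is made in part by the oxidative pentose phosphate pathway. PGD, a dehydrogenase of that pathway, was at 353 and 323 CPM with vehicle and 496 and 521 CPM with LBP (0.59 ± 0.08, adjusted p = 0.00312), and the groups lay apart. Of 20 NADPH-related genes 3 were called higher, among them PGD and MTHFD2 (described below), and none lower (none lower by DESeq2 or at an unadjusted p under 0.05), and the median was 0.08. PGD lost its call without vehicle replicate 2 (0.0601).

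Other members of the NRF2 list are named after their values were seen. UGDH, which makes the glucuronic acid donor, rose by 0.84, and EPHX1, an epoxide hydrolase, by 0.63; UGDH lost its call without vehicle replicate 2 (adjusted p = 0.0601) and EPHX1 whichever library was left out (up to 0.182). The transporter gene ABCC3 was not called (43.3 and 42.0 CPM with vehicle, 64.6 and 60.0 CPM with LBP, adjusted p = 0.0768). Outside the list, the prostaglandin reductase gene PTGR1 was at 50.7 and 51.0 CPM and 81.5 and 81.7 CPM (0.68 ± 0.09, adjusted p = 0.00209) and kept its call without any 1 library. PIR (pirin) rose by 0.62 and the quinone reductase gene NQO2 by 0.47. Over the 15 settings tried, PIR lost its call in 5 and NQO2 in 11. PIR lost its call without vehicle replicate 1, vehicle replicate 2 or LBP replicate 2, and NQO2 whichever library was left out, with adjusted p up to 0.229 and 0.375.

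Of the genes that control NRF2 most were not called. NFE2L2, which encodes NRF2, was at 121 and 128 CPM with vehicle and 139 and 126 CPM with LBP, and the groups overlapped (adjusted p = 0.714). KEAP1, its inhibitor, was at 75.01 and 81.3 CPM with vehicle and 96.5 and 101 CPM with LBP, which did not overlap but was not called (0.34 ± 0.08, adjusted p = 0.0824). SQSTM1 (p62), which binds KEAP1 and is itself a target, was at 455 and 483 CPM and 684 and 823 CPM (0.68 ± 0.11, adjusted p = 0.0126). SQSTM1 was the 1 regulator called of 16, and none was called lower; at an unadjusted p under 0.05, 3 were higher and 1 lower, and DESeq2 called 2 higher and none lower. Without vehicle replicate 1, vehicle replicate 2 or LBP replicate 2 its call ended (adjusted p up to 0.174).

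Promoters of 5 of the risen genes are shown because they hold the antioxidant response element core, TGACNNNGC, where N is any base. Each sequence is from RefSeq (GRCh38.p14), read 5′ to 3′ on the gene's strand, with 25 bases on each side of the core in lower case and the core, or its reverse complement, in capitals.
GCLM (chr1:93909431-93909489, minus strand): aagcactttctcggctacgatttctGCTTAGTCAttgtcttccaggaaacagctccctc
GPX2 (chr14:64942834-64942892, minus strand): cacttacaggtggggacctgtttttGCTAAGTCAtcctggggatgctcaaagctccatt
TXNRD1 (chr12:104215655-104215713, plus strand): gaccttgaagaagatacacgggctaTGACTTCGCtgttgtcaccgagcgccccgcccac
EPHX1 (chr1:225825251-225825309, plus strand): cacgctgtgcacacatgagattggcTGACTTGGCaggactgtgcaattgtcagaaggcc
SLC3A2 (chr11:62881637-62881695, plus strand): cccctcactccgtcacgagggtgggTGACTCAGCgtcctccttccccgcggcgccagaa

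The core was searched on both strands in windows from 250 bases before to 50 after each RefSeq gene start, 15666 windows of 10709 tested genes, some genes having several. It was in 14.4% of all windows, in 23.0% of the 74 windows of genes called higher and in 15.1% of the 53 windows of genes called lower. Of the 25 windows of the NRF2 list 7 held it. RefSeq windows were matched for 88 of the 119 called features. A match is a description of letters and shows no binding.

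**Figure D3:**
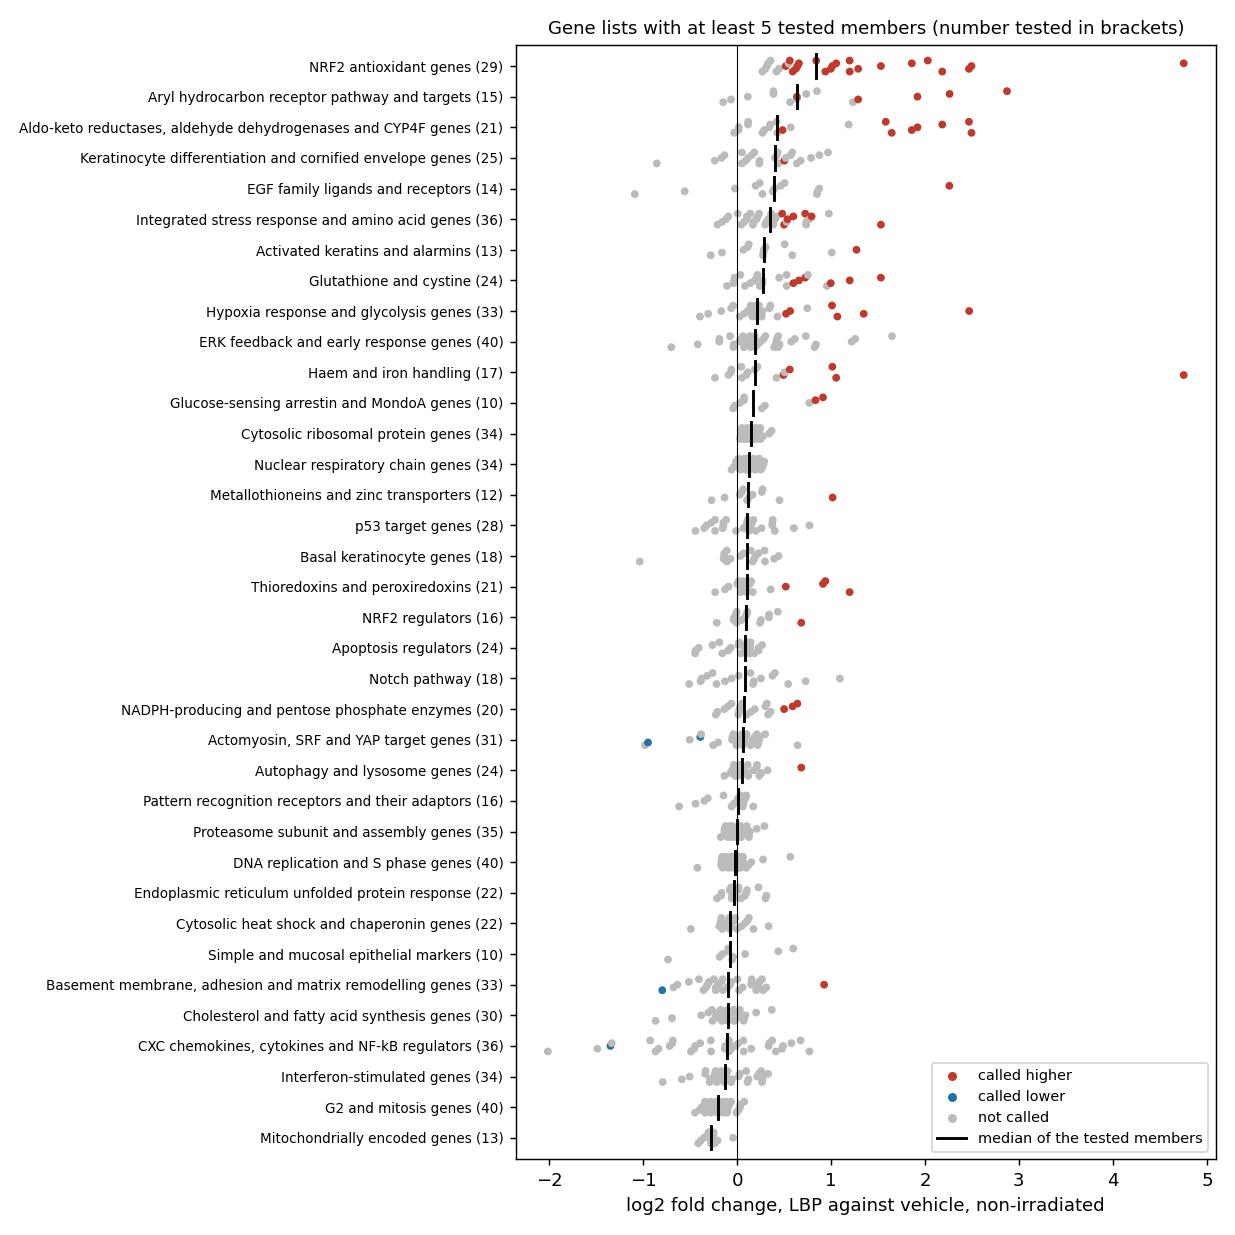
Log2 fold change of each tested member (horizontal axis; red called higher, blue called lower, grey not called) of every gene list with at least 5 tested members (vertical axis), with the median as a black bar. The NRF2 list has the highest median (0.84, 29 genes) and the mitochondrially encoded list the lowest (-0.28, 13 genes).

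Classical AhR targets rose beside the NRF2 genes. CYP1A1 (ENSG00000140465.13, chr15:74719542-74725610) was at 13.9 and 14.4 CPM with vehicle and 94.1 and 114 CPM with LBP (2.87 ± 0.18, adjusted p = 9.23e-06). CYP1B1 was at 29.6 and 32.9 CPM and 155 and 145 CPM (2.26 ± 0.15, adjusted p = 1.25e-05). Both calls held without any 1 library. UGT1A6, a glucuronosyltransferase named after its values were seen, rose by 0.64 (adjusted p = 0.000585); it shares its last exons with UGT1A4 and other genes of the UGT1A locus, so their counts may be divided arbitrarily. The other called genes of the list, NQO1 and ALDH3A1, are also NRF2 targets. Of 15 tested AhR pathway genes 5 were called higher and none lower (DESeq2 8 higher and none lower; 10 higher and none lower at an unadjusted p under 0.05), with a median of 0.64.

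TIPARP, a feedback repressor of the receptor, was not called, at 90.6 and 104 CPM with vehicle and 157 and 131 CPM with LBP (adjusted p = 0.211). AHR itself was not called either, at 150.0 and 148 CPM and 176 and 147 CPM, overlapping (adjusted p = 0.622). PDCD6-AHRR, a read-through of the repressor gene AHRR and its neighbour, is outside the list and the naming rule and was called higher, at 2.68 and 3.53 CPM and 6.91 and 6.11 CPM (1.06 ± 0.17, adjusted p = 0.0132), with adjusted p up to 0.171 without vehicle replicate 1, LBP replicate 1 or LBP replicate 2. Counts of a read-through cannot be separated from those of the genes it joins.

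The xenobiotic response element core, TNGCGTG, was in 6.72% of all windows and in 5 of 74 windows (6.76%) of genes called higher. It was in 3 of 53 windows (5.66%) of genes called lower and 4 of the 16 windows of the AhR list. The CYP1A1 window does not hold these letters. A UGT1A6 window is shown, with the core in capitals, as an example of a called gene of the list that does.
UGT1A6 (chr2:233691475-233691531, plus strand): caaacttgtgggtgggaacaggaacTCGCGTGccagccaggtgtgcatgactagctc

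Genes of amino acid supply rose in the integrated stress response list, where 7 of 36 were called higher and none lower (DESeq2 11 higher, none lower; 19 higher and none lower at an unadjusted p under 0.05; median 0.35). With the length trend removed, 5 of the 36 were called higher and none lower. ASNS, asparagine synthetase, was at 137 and 133 CPM with vehicle and 232 and 235 CPM with LBP (0.79 ± 0.08, adjusted p = 0.000526). The serine synthesis genes PHGDH and PSAT1 rose by 0.54 and 0.48, and the mitochondrial folate enzyme MTHFD2 by 0.50. PCK2, outside the lists, rose by 0.66; it and PSAT1 were named after their values were seen. SLC7A11, SLC3A2 and CTH, described above, are the remaining called members. The regulators themselves were not called: ATF4 was at 339 and 305 CPM with vehicle and 351 and 374 CPM with LBP (adjusted p = 0.554), and the stress gene DDIT3 (CHOP) at 9.92 and 7.78 CPM and 13.9 and 9.44 CPM (adjusted p = 0.783).

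ASNS and SLC7A11 kept their calls without any 1 library, and the list then held 2 called members whichever library was left out. PHGDH, PSAT1, MTHFD2 and PCK2 lost theirs without each library, with adjusted p up to 0.229, 0.179, 0.332 and 0.374. The unfolded protein response of the endoplasmic reticulum had no call by edgeR or DESeq2 among 22 genes (1 higher and 2 lower at an unadjusted p under 0.05, median -0.03). The 22 heat shock and chaperonin genes had no edgeR call (1 higher and 1 lower at an unadjusted p under 0.05), and DESeq2 called 1 lower.

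Of 33 genes of hypoxia and glycolysis 28 had a log2 fold change above 0, and 6 were called higher. BNIP3, a mitophagy receptor, was at 37.0 and 28.2 CPM with vehicle and 85.9 and 79.5 CPM with LBP (1.35 ± 0.14, adjusted p = 0.000526). ALDOC, a glycolytic aldolase, was at 27.7 and 22.7 CPM and 53.3 and 52.3 CPM (1.07 ± 0.11, adjusted p = 0.000457). NDRG1, a stress-responsive gene, was at 99.3 and 100.5 CPM and 201 and 201 CPM (1.01 ± 0.12, adjusted p = 0.00115). These 3 kept their calls without any 1 library. BNIP3L, a relative of BNIP3, rose by 0.56. Named after their values were seen, the collagen prolyl hydroxylase P4HA1 rose by 0.52 and the carbonic anhydrase CA9 by 2.47, from 0.184 and 0.382 CPM to 1.64 and 1.66 CPM. BNIP3L lost its call without vehicle replicate 1, vehicle replicate 2 or LBP replicate 1 (adjusted p up to 0.171). P4HA1 and CA9 lost theirs without each library (up to 0.211 and 0.175), and without vehicle replicate 2 the CA9 value was 3.15. None of the list was called lower (DESeq2 8 higher, none lower; 14 higher and none lower at an unadjusted p under 0.05), and its median was 0.22. The glucose transporter SLC2A1 (0.22 ± 0.09, adjusted p = 0.293) and LDHA (0.26 ± 0.08, adjusted p = 0.202) were not called.

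The hypoxia response element core, TACGTG, was in 3.25% of all windows and in 5 of 74 windows (6.76%) of genes called higher. It was in 3 of 53 windows (5.66%) of genes called lower and 11 of the 50 windows of the hypoxia list. The windows of 3 called genes of that list are shown because they hold it, with the core or its reverse complement in capitals.
CA9 (chr9:35673885-35673940, plus strand): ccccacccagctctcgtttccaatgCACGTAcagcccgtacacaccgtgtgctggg
ALDOC (chr17:28576893-28576948, minus strand): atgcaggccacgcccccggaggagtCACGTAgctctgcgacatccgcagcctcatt
P4HA1 (chr10:73096922-73096977, minus strand): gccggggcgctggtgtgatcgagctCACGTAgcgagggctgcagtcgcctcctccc

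TXNIP, an inhibitor of thioredoxin and of glucose uptake, was at 40.0 and 35.4 CPM with vehicle and 70.5 and 71.5 CPM with LBP (0.91 ± 0.14, adjusted p = 0.00870). Its relative ARRDC4 was at 27.8 and 31.3 CPM and 54.6 and 50.9 CPM (0.83 ± 0.15, adjusted p = 0.0186). They were the 2 called of 10 glucose-sensing genes, whose median was 0.17, and both lost their calls whichever library was left out (adjusted p up to 0.108 and 0.277). SLC30A1, which exports zinc, was at 44.5 and 44.0 CPM with vehicle and 101 and 78.1 CPM with LBP (1.02 ± 0.13, adjusted p = 0.00185), and kept its call without any 1 library. It was the 1 called of 12 metallothionein and zinc transport genes; the metallothionein MT2A was at 373 and 363 CPM and 371 and 421 CPM, overlapping (adjusted p = 0.670).

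Among keratinocyte genes, EPGN (epigen, an EGF receptor ligand; chr4:74308473-74315307) was at 3.79 and 4.03 CPM with vehicle and 19.6 and 18.0 CPM with LBP (2.26 ± 0.22, adjusted p = 0.000226), and kept its call without any 1 library. It was the 1 called member of 14 EGF family genes, of which 5 were higher and 1 lower at an unadjusted p under 0.05 and DESeq2 called 1 higher and 1 lower; the median was 0.39. AREG (amphiregulin) was at 29.3 and 49.1 CPM and 79.3 and 65.2 CPM without a call (0.87 ± 0.29, adjusted p = 0.212), and EREG (epiregulin) at 12.2 and 18.4 CPM and 32.9 and 22.7 CPM (0.85 ± 0.42, adjusted p = 0.403). KRT16, a keratin of activated and wounded epidermis, was at 13.8 and 17.8 CPM and 37.9 and 38.7 CPM (1.27 ± 0.18, adjusted p = 0.00571), and lost its call without vehicle replicate 1 or LBP replicate 2 (up to 0.113). Its co-expressed keratins were not called: KRT17 was at 0.59 ± 0.14 (adjusted p = 0.0794) and KRT6A at 0.28 ± 0.09 (adjusted p = 0.212).

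KRT10, a keratin of differentiating suprabasal cells, was at 45.9 and 52.2 CPM with vehicle and 69.4 and 69.7 CPM with LBP (0.50 ± 0.08, adjusted p = 0.0130); it lost its call without vehicle replicate 1, LBP replicate 1 or LBP replicate 2 (up to 0.203). It was the 1 called of 25 tested differentiation and cornified envelope genes, 21 of which had a log2 fold change above 0 (median 0.40), and DESeq2 called 3 higher and none lower. Filaggrin (FLG), which aggregates keratin filaments, was at 133 and 137 CPM and 228 and 191 CPM without a call (0.64 ± 0.21, adjusted p = 0.217), the cross-linking enzyme gene TGM1 at 11.5 and 13.7 CPM and 24.8 and 21.6 CPM (0.88 ± 0.22, adjusted p = 0.107), and KRT1, the partner of KRT10, was barely present at 0.184 and 0.159 CPM and 0.199 and 0.258 CPM. The basal keratins KRT5 (0.14 ± 0.09, adjusted p = 0.530) and KRT14 (0.30 ± 0.11, adjusted p = 0.270) were not called, nor was any of the 18 basal genes by edgeR (5 higher and none lower at an unadjusted p under 0.05; DESeq2 1 higher).

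Risen genes of other kinds, named after their values were seen, include PTHLH, the parathyroid hormone-related peptide of keratinocytes, at 277 and 312 CPM with vehicle and 553 and 501 CPM with LBP (0.84 ± 0.14, adjusted p = 0.0178), and the phosphate transporter SLC20A1 (0.53 ± 0.08, adjusted p = 0.00625). SOCS1, a suppressor of cytokine signalling, was at 2.05 and 2.16 CPM and 5.30 and 4.17 CPM (1.16 ± 0.17, adjusted p = 0.00762). The calcium-binding gene S100P rose by 1.43 from 0.632 and 0.700 CPM, and NDUFA4L2, a mitochondrial protein gene, by 1.61 from 0.684 and 0.493 CPM. Of these 5, SLC20A1 and SOCS1 lost their calls without vehicle replicate 1, vehicle replicate 2 or LBP replicate 1, and the other 3 whichever library was left out; adjusted p reached 0.276 for PTHLH, 0.111 for SLC20A1, 0.113 for SOCS1, 0.332 for S100P and 0.179 for NDUFA4L2.

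Falls were fewer and, among the genes named here other than ZBED6 and PDE8B (below), at most 2.54-fold. CXCL6, a neutrophil-attracting chemokine (chr4:73836497-73849064), was at 14.8 and 15.5 CPM with vehicle and 6.54 and 5.36 CPM with LBP (-1.35 ± 0.14, adjusted p = 0.000526), and its call held without any 1 library and in each of the 15 settings tried; PDE8B, described below, was the other lower gene named here whose call held without any 1 library. The related chemokine CXCL1 was at 18.1 and 34.7 CPM and 9.92 and 9.01 CPM (-1.49 ± 0.38), with vehicle libraries that differed widely, and was not called (adjusted p = 0.114). CXCL8 was not called and its groups overlapped (9.37 and 24.97 CPM with vehicle, 15.5 and 13.1 CPM with LBP, adjusted p = 0.865; -0.28, but 0.61 without vehicle replicate 2). IL6 was slightly higher with LBP, without a call (5.68 and 7.21 CPM and 7.33 and 9.08 CPM, adjusted p = 0.782). CXCL6 was the 1 called of 36 chemokine, cytokine and NF-kB regulator genes, with 4 lower and none higher at an unadjusted p under 0.05, 1 lower and none higher by DESeq2, and a median of -0.11.

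Some lower genes encode cytoskeleton, adhesion or matrix proteins. VIM (vimentin) was at 20.3 and 16.8 CPM with vehicle and 8.85 and 10.3 CPM with LBP (-0.95 ± 0.14, adjusted p = 0.00879). FN1 (fibronectin, chr2:215360440-215436172) was at 4942 and 3619.5 CPM and 2576 and 2355 CPM (-0.80 ± 0.16, adjusted p = 0.0394), the vehicle libraries being further apart than the LBP ones. TLN2 (talin 2), which links integrins to actin, was at 11.3 and 9.61 CPM and 5.77 and 4.78 CPM (-0.99 ± 0.16, adjusted p = 0.0137). TGM2 (tissue transglutaminase), which cross-links matrix proteins, was at 4.16 and 4.15 CPM and 2.26 and 2.25 CPM (-0.88 ± 0.18, adjusted p = 0.0474). CNN3 (calponin 3) fell, at -0.39 ± 0.08. VIM and CNN3 were the 2 called of 31 actomyosin, SRF and YAP target genes (median 0.06), and FN1 was the 1 lower call of 33 basement membrane and matrix genes (median -0.10), of which 9 were lower and 2 higher at an unadjusted p under 0.05. VIM lost its call without vehicle replicate 1 or LBP replicate 1 (adjusted p up to 0.116), FN1 without vehicle replicate 1, LBP replicate 1 or LBP replicate 2 (up to 0.399), TLN2 without vehicle replicate 1, vehicle replicate 2 or LBP replicate 2 (up to 0.171), and TGM2 and CNN3 whichever library was left out (up to 0.261 and 0.343).

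The other lower genes of the naming rule are of mixed kinds. DACT1, an intracellular Wnt modulator, was at 5.40 and 4.49 CPM with vehicle and 2.51 and 1.73 CPM with LBP (-1.22 ± 0.25, adjusted p = 0.0450). PRICKLE1, a planar polarity gene, was at 7.05 and 7.08 CPM and 3.18 and 4.07 CPM (-0.96 ± 0.18, adjusted p = 0.0294). FGD3 and PLEKHG6, guanine nucleotide exchange factor genes, fell, at log2 fold changes of -1.06 and -0.76. Also lower by the naming rule were PCDHAC2 (-1.14; its last exons are shared by the protocadherin alpha cluster), SYT16 (-1.08), PGM2L1 (-0.92) and LYPD1 (-0.80). SYT16 lost its call without vehicle replicate 1, LBP replicate 1 or LBP replicate 2, and the other 7 whichever was left out, with adjusted p up to 0.345, 0.214, 0.172, 0.223, 0.285, 0.277, 0.320 and 0.213 in the order named.

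Lower genes named after their values were seen include NFE2L3, which encodes a relative of NRF2, at 121 and 124 CPM with vehicle and 77.7 and 92.2 CPM with LBP (-0.53 ± 0.09, adjusted p = 0.0180). AMOT (angiomotin) and WWC1 (KIBRA), both of the Hippo pathway, fell, at -0.71 and -0.37. So did the Notch co-activator MAML2, at -0.66, and LGR4, a receptor gene of Wnt signalling, at -0.44. The focal adhesion gene TNS3, the actin-associated genes AFAP1 and RAI14, PHLDB1 and the condensin gene NCAPH fell, at -0.38, -0.40, -0.48, -0.52 and -0.47. NFE2L3 lost its call without vehicle replicate 1, vehicle replicate 2 or LBP replicate 1, AMOT without vehicle replicate 1, LBP replicate 1 or LBP replicate 2, and the other 8 whichever was left out, with adjusted p of at most 0.399 (WWC1).

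Several programmes had no call by edgeR. Their other counts, here and in the next paragraph, stand against a background over all 14799 tested features. Of these, 2003 had an unadjusted p under 0.05, and DESeq2 called 191 higher and 183 lower. G2 and mitosis genes had 36 of 40 log2 fold changes below 0 (median -0.20), with 17 lower and none higher at an unadjusted p under 0.05; TPX2, a spindle assembly factor, was nearest to a call (517 and 493 CPM with vehicle, 399 and 398 CPM with LBP, -0.34 ± 0.07, adjusted p = 0.0553), MKI67 was at -0.40 ± 0.10 (adjusted p = 0.0951), and DESeq2 called 6 of the 40 lower. The 40 S phase genes had a median of -0.02 (1 higher and 1 lower at an unadjusted p under 0.05; DESeq2 1 lower). The 28 p53 targets had a median of 0.11 (3 higher and 2 lower at an unadjusted p under 0.05; DESeq2 1 lower), and CDKN1A, the p21 gene, was at 108 and 128 CPM and 159.6 and 147 CPM (adjusted p = 0.495). Apoptosis regulators (24 genes, 2 higher and 2 lower at an unadjusted p under 0.05; DESeq2 1 lower) and Notch genes (18, with 5 lower and none higher; DESeq2 1 lower) had none either. The lists do not hold MAML2 and NCAPH, both called lower above. With the length trend removed, the G2 and mitosis list and the p53 list each held 1 lower call by edgeR. Of the mitosis genes, TPX2 was called in 7 of the 15 settings tried, CENPF in 4, MKI67 in 2, and CCNB1 and TOP2A in none.

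Interferon-stimulated genes had 22 of 34 values below 0 (median -0.13; 3 lower and none higher at an unadjusted p under 0.05), and DESeq2 called 2 lower. Pattern recognition receptors and adaptors had a median of 0.00508 over 16 genes, with 2 lower and none higher at an unadjusted p under 0.05 and no DESeq2 call; TLR2 was at -0.44 ± 0.11 (adjusted p = 0.107) and TLR4 at -0.62 ± 0.19 (adjusted p = 0.191). Of 40 ERK feedback and early response genes 9 were higher and 2 lower at an unadjusted p under 0.05, and DESeq2 called 2 higher and 1 lower; FOSL1, an AP-1 subunit, was at 208 and 274 CPM and 447 and 416 CPM (0.84 ± 0.18, adjusted p = 0.0527). Cholesterol and fatty acid synthesis genes (30, median -0.10; 1 higher and 4 lower at an unadjusted p under 0.05) and proteasome genes (35, median -0.00226; 2 higher and none lower) had no call by either tool. The 34 ribosomal protein genes were all above 0 by a little (median 0.15; 5 higher and none lower at an unadjusted p under 0.05; DESeq2 2 higher), and the 13 mitochondrially encoded genes all below 0 (median -0.28; none at an unadjusted p under 0.05, none by DESeq2). The 34 nuclear respiratory chain genes had a median of 0.12, with 7 higher and none lower at an unadjusted p under 0.05 and no DESeq2 call.

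Some of the largest fold changes belong to features that share exons with other genes, where counts could have been assigned to either. In GENCODE v29, 21 of the 111 called features with a position overlap the exons of another gene on the same strand. The share among all tested features was not counted, so this is no result about the called ones. Genes described above with such an overlap include CYP1B1, OSGIN1, GCLC, SRXN1, ASNS and CXCL6. ZBED6 lies within ZC3H11A: ZBED6 was at 83.2 and 87.6 CPM with vehicle and 21.4 and 16.1 CPM with LBP (-2.19 ± 0.32, adjusted p = 0.00628), while ZC3H11A was at 64.7 and 45.8 CPM and 126 and 103 CPM, higher without a call (1.05 ± 0.22, adjusted p = 0.0549). Without vehicle replicate 2 or LBP replicate 2 the ZBED6 call ended (up to 0.104). AL355312.5, whose exons overlap LRP11 and RAET1E, is outside the naming rule and was at 0.105 and 0.0637 CPM with vehicle and 10.6 and 9.04 CPM with LBP (adjusted p = 9.23e-06); the vehicle counts were 4 and 4, so no fold is given.

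Some called features, named after their values were seen, had 0 counts in both libraries of a group. PDE8B, a phosphodiesterase gene (chr5:77210449-77429807) with exons that overlap WDR41 on the opposite strand, had 37 and 55 counts with vehicle and 0 with LBP, at least 12.8-fold lower when each LBP library is set to 3 counts. AC008982.1, which shares exons with ECH1 and HNRNPL, had 0 with vehicle and 21 and 18 counts with LBP, at least 7.45-fold higher. AC135050.2, which shares exons with VKORC1 and PRSS53, had 0 with vehicle and 87 and 17 counts with LBP, at least 20.2-fold higher, or 6.28-fold from LBP replicate 2 alone. If both mates of a pair were counted, a floor of 6 counts lowers these bounds to 6.38, 3.72 and 10.1. PDE8B kept its call without any 1 library, AC008982.1 lost it without each (adjusted p up to 0.104), and AC135050.2 lost it without vehicle replicate 1, vehicle replicate 2 or LBP replicate 1 (up to 0.279). Assembled loci with no gene name made up 6 of the 80 higher and 1 of the 39 lower calls.

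Most of the changes were also present in irradiated cells, measured in 6 other libraries, 3 given vehicle and 3 given LBP before 12 Gy. There 2.79% of features were called higher and 1.57% lower with LBP. Of the 80 features called higher in non-irradiated cells, 68 (85%) were called higher in irradiated cells, and these were 16.5% of the 413 called there. For the 39 called lower the count was 23 (59.0%), or 9.91% of 232. Medians were 0.84 in non-irradiated and 0.73 in irradiated cells for the first set, and -0.65 and -0.37 for the second; since the sets were chosen by their size in non-irradiated cells, the smaller medians are given without a test.

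**Figure D4:**
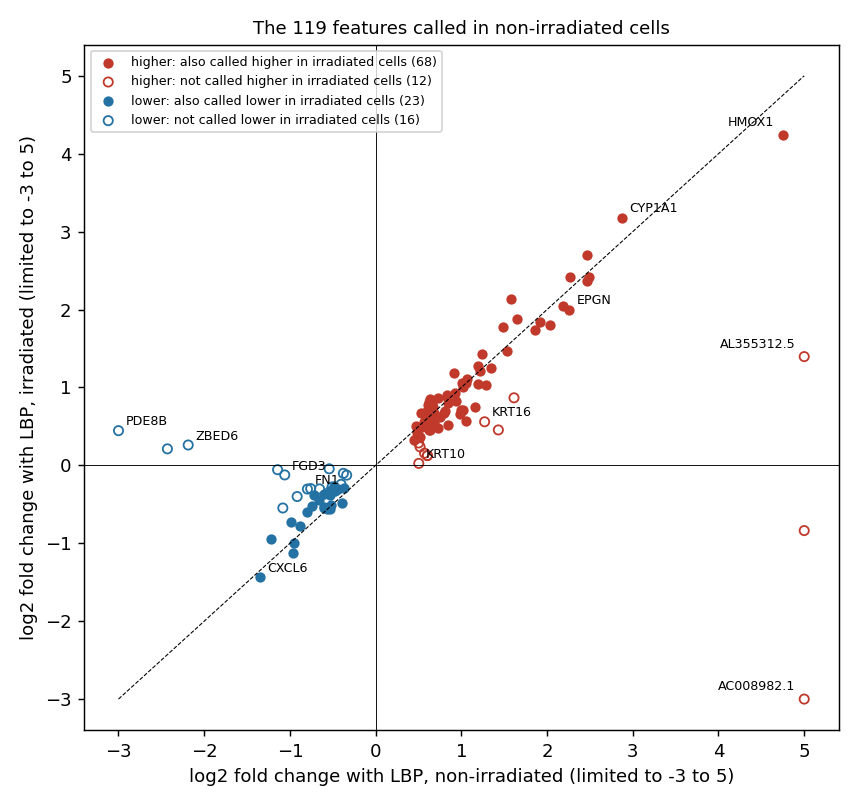
Log2 fold change with LBP in irradiated cells (vertical axis) against that in non-irradiated cells (horizontal axis), both limited to -3 to 5, for the 119 features called in non-irradiated cells; the dashed line marks equal values. Filled points were also called in the same direction in irradiated cells (68 red, 23 blue), open points were not.

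For the leading genes the values stood close. HMOX1 was 4.24 ± 0.20 in irradiated and 4.75 ± 0.25 in non-irradiated cells, CYP1A1 3.18 ± 0.15 and 2.87 ± 0.18, and AKR1C2 2.42 ± 0.14 and 2.49 ± 0.17. CXCL6 was -1.44 ± 0.12 in irradiated and -1.35 ± 0.14 in non-irradiated cells. KRT16 (0.56 ± 0.15, adjusted p = 0.0518), KRT10 (0.03 ± 0.07, adjusted p = 0.865) and FN1 (-0.30 ± 0.13, adjusted p = 0.194) were not called in irradiated cells, but the difference between the radiation states was not called for them either (adjusted p = 0.573, 0.573 and 0.597).

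The difference itself, tested as an interaction over all 14799 features, was called for 2 features (0.0135%), PDE8B and AC008982.1, both with 0 counts in a group; without LBP replicate 2 neither was called, and without LBP replicate 1 the AC008982.1 call ended (adjusted p = 0.0573). Over all features, 1213 had an unadjusted p under 0.05. Among genes that met the level and symbol conditions, those nearest to a call were ZBED6, COX16, RPL32, RPL35 and SERF1B, with adjusted p of 0.204, 0.360, 0.491, 0.491 and 0.563. None of the 4 besides ZBED6 was called in non-irradiated cells: COX16, an assembly factor of respiratory complex IV, was at 0.30 ± 0.08 there and -0.26 ± 0.07 in irradiated cells, and the ribosomal protein gene RPL32 at 0.34 ± 0.08 and -0.20 ± 0.07. A p that misses the threshold does not show that LBP acted alike in both states.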

How the data were processed

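The members, gene lists and naming rule were chosen with earlier results of these data known. Per the labels' protocols, RNA was extracted with Trizol and amplified cDNA was circularised into libraries. The deposited tables hold counts per gene and FPKM for the same 22003 features. Per the submitters' processing notes the authors aligned reads with HISAT2 to GRCh38. For versions, counting tool, strand setting and annotation nothing is given in the sources used here. The authors' counts were used as deposited, and the authors' FPKM (counts scaled by length and depth) served only as an alternative. Of counts from 1 to 10, 59.7% were even (6040 values of 2 against 1398 of 1 and 3256 of 3). Whether both mates of a pair were counted was not tested.

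Features passing filterByExpr (minimum count 10) went into edgeR 4.0.16 (R 4.3.3) with TMM scaling and a quasi-likelihood fit with 1 mean per group over all 10 libraries (6 residual degrees of freedom, prior 6.06; coefficient of variation 11.5%). CPM use TMM-scaled library totals. Same-numbered libraries were not paired in the model. Over all features the deviations of vehicle and LBP replicates correlated at -0.0408. That value does not settle whether same-numbered libraries belonged together. Replicate libraries differed beyond counting noise (chi-square per degree of freedom 15.1 and 19.1), so none was treated as a repeat. Alternatives were DESeq2 1.42.0, limma 3.58.1 on log2(FPKM + 0.1) and log2(FPKM + 1), other scalings and filters, replicate blocks and leaving out each library. The procedure was tested on simulated counts of this 2 against 2 comparison, with 50 genes changed at each size. It called 30% of them at 1.5-fold, 68% at 2-fold, 78% at 3-fold and 84% at 4-fold. A missing call therefore does not show that a gene was unchanged.

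Named genes are the 14 largest changes in each direction among called features whose groups did not overlap, whose log2 CPM averaged 1 or more and whose symbol is no clone, assembled-locus, antisense or pseudogene name; a fixed set; up to 4 called members of each of 40 lists, or the 1 nearest; and 5 genes of the interaction. Lists share members. Positions are from GENCODE v29 (19414 symbols with 1 position). Some genes that meet the rule are not reported here.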

Additional observations from a re-analysis of the deposited data

Results flagged for a closer look

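In 2 features the LBP effect differed between non-irradiated and irradiated cells by the interaction test of edgeR's quasi-likelihood model over all features. PDE8B had an adjusted p of 0.00441: it was at 0.974 and 0.875 CPM with vehicle and 0 with LBP in non-irradiated cells, and at 0.909, 1.27 and 0.862 CPM with vehicle and 1.28, 1.39 and 1.47 CPM with LBP in irradiated cells. AC008982.1 had an adjusted p of 0.00611: it was at 0 with vehicle and 0.522 and 0.421 CPM with LBP in non-irradiated cells, and at 0.540, 0.719 and 0.605 CPM with vehicle and 0 with LBP in irradiated cells. Both overlap the exons of other genes (WDR41 for PDE8B, ECH1 and HNRNPL for AC008982.1), and how the authors' counting divided reads between them was not tested. Without LBP replicate 2 neither was called (adjusted p = 0.0517 for PDE8B and 0.0615 for AC008982.1). AC008982.1 was also not called without LBP replicate 1 (0.0573) or with the replicate block (0.0951), and PDE8B was not called by limma on log2(FPKM + 0.1) (0.0911) or log2(FPKM + 1) (0.659).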

How the results depend on the processing

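With 2 libraries per group, the 119 calls of LBP alone ranged from 38 to 52 when 1 of the 4 libraries was left out, which leaves a lone library assumed to vary like the other groups. The count was 188 with no filter on low counts, 374 with DESeq2, 278 with only the 4 vehicle and LBP libraries, 69 and 62 with limma on log2(FPKM + 0.1) and log2(FPKM + 1), and 42 at a 2-fold minimum. With the replicate number as a block it was 963 in the 4 libraries and 148 in all 10. Whether same-numbered libraries belonged to 1 repeated experiment is not settled by the labels or by the values. For LBP in irradiated cells 645 calls became 1228 with DESeq2 and 813 with the replicate block, and 176 to 722 with 1 library left out. The interaction's 2 calls became 7 with no filter, 16 with DESeq2, 1 with the replicate block and 0 to 5 with 1 library left out (0 without LBP replicate 2). Of 90 named genes that were called, all kept their direction in every setting and 25 their call; of 61 not called, 37 passed in at least 1 setting. Of the 61, 2 reversed with 1 library left out: CXCL8 ranged from -0.81 (without vehicle replicate 1) to 0.61 (without vehicle replicate 2), and AHR from -0.0325 (without LBP replicate 1) to 0.24 (without LBP replicate 2); the cause was not tested. On log2(FPKM + 1) the fold changes of low features shrink by construction. Another scaling left 59.1 to 65.0% of calls higher against 67.2%, and moved the median of all features by less than 0.1.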
